A study of Homo sapiens with 4 samples.

Results

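The genes described here are 9 that are best known from the lining of blood vessels, measured in ovarian carcinoma cells: CDH5, PECAM1, ESAM, CLDN5, EPHA2, ROBO4, ENG, VWF and EMCN. Each was represented by 1 of the 21448 features of an Affymetrix Human Clariom S array, matched by the platform's gene symbol, out of 17687 symbols in all. The list was drawn up with the level of these genes on the arrays and their difference between the groups in view. The levels and differences of the 9 are therefore given as a description, with a standard error and a 95% interval. Standard errors and intervals come from limma, which draws each gene's variance towards a value common to all features. They are thus not each gene's own spread. Counts of the 9 past limma's threshold are printed once beside the share of all features, and nothing is read from them. HeyA8-MDR, an established multidrug-resistant human ovarian carcinoma line, was grown in both groups alike, in RPMI 1640 with paclitaxel at 300 ng/ml, serum at 15% and gentamicin at 0.1%. The control group (2 arrays) had received a control microRNA inhibitor and the miR204 group (2 arrays) an inhibitor of miR-204-5p. One treatment note, naming the miR-204-5p inhibitor, is attached to all 4 arrays, so the groups were taken from the sample titles and the design text. Dose and duration of the inhibitor are not given in the sources used here. Nothing in the labels says that arrays of a group came from separate cultures, so the spread between them may be technical.

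In endothelial cells, VE-cadherin holds neighbouring cells together at adherens junctions, while claudin-5, ESAM and PECAM-1 act at the same cell borders. Von Willebrand factor is stored in granules and released to bind platelets, and endomucin and endoglin sit on the luminal or outer cell surface. Carcinoma cells of some tumours line channels that carry blood, which is called vasculogenic mimicry, and VE-cadherin and the receptor EPHA2 are the genes most often named for it.

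The inhibitor is directed at miR-204-5p, so its mature sequence is shown together with that of miR-211-5p, which has the same seed; capitals mark the seed, bases 2 to 8, and the sequences are from RefSeq (GRCh38.p14).
miR-204-5p: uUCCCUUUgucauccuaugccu
miR-211-5p: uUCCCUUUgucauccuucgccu
The first lies on the minus strand of chromosome 9 (70810031 to 70810052) and the second on the minus strand of chromosome 15 (31065095 to 31065116), and the 2 differ at 2 of 22 bases, both outside the seed. The level of miR-204-5p was not analysed here.

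Values are log2 expression made with RMA, which corrects background, normalizes arrays and summarises probes, and no detection calls were used here. The median of all features was 5.65 and 5.68 in control cells and 5.59 and 5.61 under the inhibitor, and Pearson correlations across features were 0.995 between controls and 0.986 between inhibitor arrays. Between the groups, inhibitor array 1 correlated with the controls at 0.985 and 0.984, and inhibitor array 2 at 0.989 and 0.988. Inhibitor array 2 was thus slightly closer to the controls than to the other inhibitor array by this measure. The brightest 25% of features had a median log2 difference, inhibitor minus control, of -0.205 and the dimmest 25% one of 0.075, against -0.07 over all features. Each member's difference is therefore set beside the median difference of all features within 0.25 log2 units of its own mean. As a guide to the dim end, 348 olfactory receptor genes, a family that an ovarian carcinoma line is not known to use, had a median of 2.74, a 95th percentile of 4.52 and a highest feature at 6.16 (mean of the 4 arrays). Brightness differs between probes for reasons other than transcript number, so a place in this range does not measure one gene against another.

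Of the 9 genes, CDH5, EPHA2, ROBO4, ENG and VWF were brighter than every olfactory receptor feature by the mean of the 4 arrays, as were 8975 of 21448 features (41.8%). In inhibitor array 1 the highest olfactory receptor feature was at 7.22, and CDH5 (7.01) and VWF (6.46) lay below it there. ESAM and CLDN5 lay above the 95th percentile of that family but below its highest feature, and PECAM1 and EMCN lay below that percentile, which 67.3% of all features exceeded. PECAM1, a defining endothelial surface marker, had control values of 3.78 and 3.81, close to the 25th percentile of all features (3.965).

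**Figure D1:**
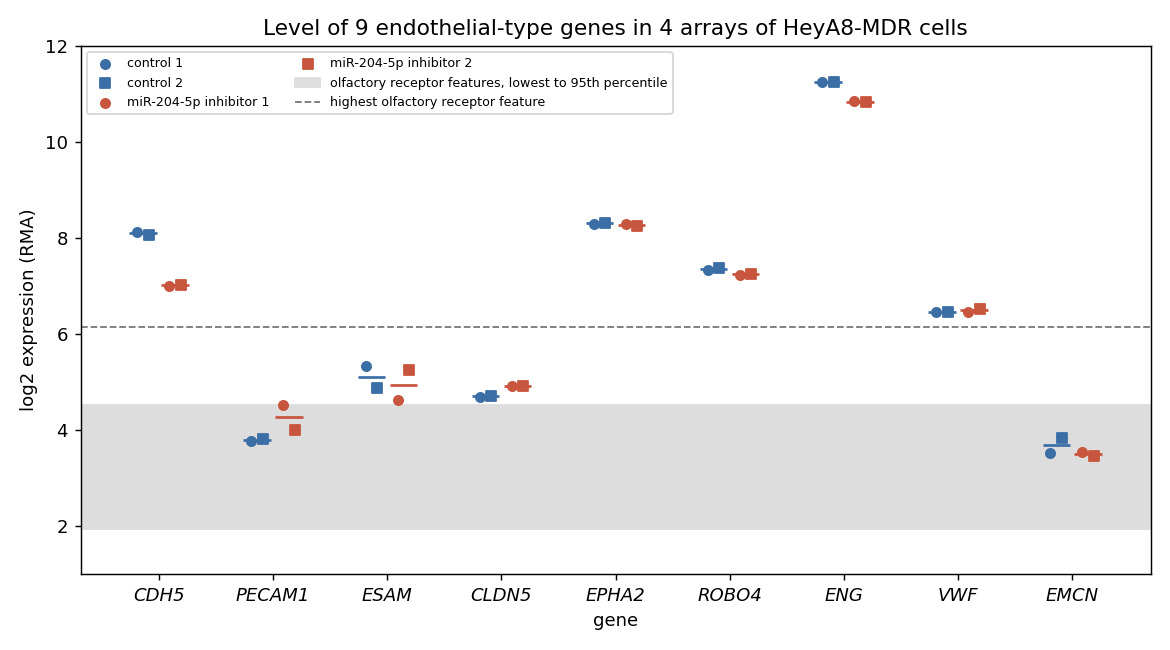
Log2 expression (RMA, vertical axis) of the 9 genes in each of the 4 arrays, with group means as short lines; the grey band runs from the lowest olfactory receptor feature to the 95th percentile of that family (4.52) and the dashed line marks its highest feature (6.16). CDH5, EPHA2, ROBO4, ENG and VWF sit above the dashed line in all arrays, and PECAM1 and EMCN sit in or at the edge of the band.

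CDH5 encodes VE-cadherin, the adhesion protein of endothelial adherens junctions, and it showed the largest difference of the 9. Its log2 expression was 8.13 and 8.06 in control cells and 7.01 and 7.03 under the miR-204-5p inhibitor. Both inhibitor arrays lay about 1 log2 unit below both controls, far apart compared with the spread inside either group. Group means were 8.095 ± 0.0495 and 7.02 ± 0.0141 (SD, n = 2 per group), a log2 difference of -1.075 (SE 0.14, 95% interval -1.408 to -0.742), or 2.11-fold lower. The 1353 features of like brightness had a median log2 difference of -0.175. CDH5 was 1 of 44 features, or 0.205% of all, that were at least 2-fold lower without overlap between the groups, and it stood at rank 26 of 21448 from the most negative difference. The log2 difference was -1.01 with equal array medians, -0.903 after quantile normalization of the deposited values and -0.892 after cyclic loess, and it ran from -1.11 to -1.04 when each array was left out in turn.

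By the root mean square difference of mean-centred log2 values over the 4 arrays, the 3 named features most like CDH5 were ALMS1 (0.0286 log2 units), CCDC159 (0.0474) and CDC7 (0.0482). ALMS1, a centrosome gene, had values of 6.05 and 5.92 in control cells and 4.91 and 4.88 under the inhibitor. CDC7, a kinase that starts DNA replication, had 7.51 and 7.52, then 6.52 and 6.51. CCDC159 had 4.07 and 4.03, then 2.91 and 3.06, and its mean lay within the dimmest 25% of features. A likeness over 4 arrays in 2 groups rests almost wholly on the group difference itself.

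The other junction genes of the list lay below the highest olfactory receptor feature, and none had a difference as large as that of CDH5. PECAM1 encodes the adhesion molecule CD31, which endothelial cells, platelets and leukocytes share. Its values were 3.78 and 3.81 in control cells and 4.53 and 4.0 under the inhibitor, so the groups did not overlap but the inhibitor arrays were 0.53 log2 units apart. The log2 difference was 0.47 (SE 0.2, 95% interval -0.006 to 0.946), and leaving out inhibitor array 1 gave 0.205 and leaving out inhibitor array 2 gave 0.735. ESAM encodes an immunoglobulin-type adhesion molecule of endothelial tight junctions and platelets. Its values were 5.33 and 4.87 in control cells and 4.62 and 5.26 under the inhibitor, with full overlap between the groups. Its log2 difference of -0.16 (SE 0.255, 95% interval -0.767 to 0.447) turned to 0.16 without inhibitor array 1. CLDN5 encodes claudin-5, the main sealing claudin of brain endothelium. Its values were 4.70 and 4.71 in control cells and 4.91 and 4.91 under the inhibitor, tight inside each group and without overlap. The log2 difference was 0.205 (SE 0.138, 95% interval -0.125 to 0.535), against a median of -0.005 for features of like brightness.

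Among the receptors of the list, ENG was lower with the inhibitor under every scaling tried, while the sign for EPHA2 and ROBO4 followed the scaling. ENG encodes endoglin, a co-receptor for BMP9, BMP10 and TGF-beta that is abundant on endothelium. Its values were 11.24 and 11.25 in control cells and 10.85 and 10.83 under the inhibitor. The arrays of a group agreed to within 0.02 log2 units and the groups did not overlap. Endoglin was 1.32-fold lower, a log2 difference of -0.405 (SE 0.139, 95% interval -0.735 to -0.075), while the 114 features of like brightness had a median of -0.21. After quantile normalization it was -0.248 and after cyclic loess -0.193, so its size depended on the scaling by more than 1.5 times.

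EPHA2 encodes a receptor tyrosine kinase for ephrin-A ligands that is common on carcinoma cells as well as on vessels. Its values were 8.30 and 8.32 in control cells and 8.30 and 8.26 under the inhibitor, and the groups touched. The log2 difference was -0.03 (SE 0.139, 95% interval -0.361 to 0.301) on the deposited values, and 0.035 with equal medians, 0.164 after quantile normalization and 0.176 after cyclic loess. ROBO4 encodes the endothelial member of the Roundabout guidance receptors. Its values were 7.33 and 7.37 in control cells and 7.24 and 7.25 under the inhibitor, without overlap but close together. The log2 difference of -0.105 (SE 0.139, 95% interval -0.436 to 0.226) became 0.061 after quantile normalization and 0.066 after cyclic loess. No direction can therefore be given for EPHA2 or ROBO4.

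VWF and EMCN stand for the secreted and the luminal products of endothelium. VWF encodes von Willebrand factor, and part of it has a near-identical pseudogene copy on another chromosome that probes may not separate. Its values were 6.45 and 6.45 in control cells and 6.46 and 6.53 under the inhibitor, a gap of 0.01 log2 units between the nearest arrays. The log2 difference was 0.045 (SE 0.14, 95% interval -0.288 to 0.378) and ran from 0.01 to 0.17 over the 3 other scalings and the 4 fits without 1 array. The features of CD79A, a B cell gene, and PF4, a platelet gene, had like values (means of 6.435 and 6.495 over the 4 arrays), so brightness of this order does not show that a gene is in use. EMCN encodes endomucin, a mucin-like surface protein of capillaries and veins. Its values were 3.53 and 3.84 in control cells and 3.54 and 3.47 under the inhibitor, and 63 of the 348 olfactory receptor features were as bright or brighter. The groups overlapped, with a log2 difference of -0.18 (SE 0.163, 95% interval -0.568 to 0.208).

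Of the 9 genes, 3 were higher and 6 lower with the inhibitor on the deposited values, against 5 higher after quantile normalization or cyclic loess. The arrays of the 2 groups did not overlap for 6 of the 9, beside 50.3% of all features; CDH5, ENG and ROBO4 were lower (33.8% of all features) and PECAM1, CLDN5 and VWF higher (16.5%). In limma 0 of the 9 reached an adjusted p under 0.05, beside 0.0513% of all features (11 of 21448), and 2, CDH5 and ENG, had an unadjusted p under 0.05, beside 17.9% of all features (3831). An intensity trend in limma's variance prior gave a count of 2, CDH5 and ENG, beside 7.11% of all features and 6.09% in the lower direction. The count was 1, CDH5, over features above the 25th percentile of brightness (0.236% of those tested, 0.0622% lower), over those above the median (9.41%, 8.07% lower) and with quantile normalization and the trend together (2.61%, 1.19% lower). Because the list was chosen on this contrast, nothing is read from these counts.

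**Figure D2:**
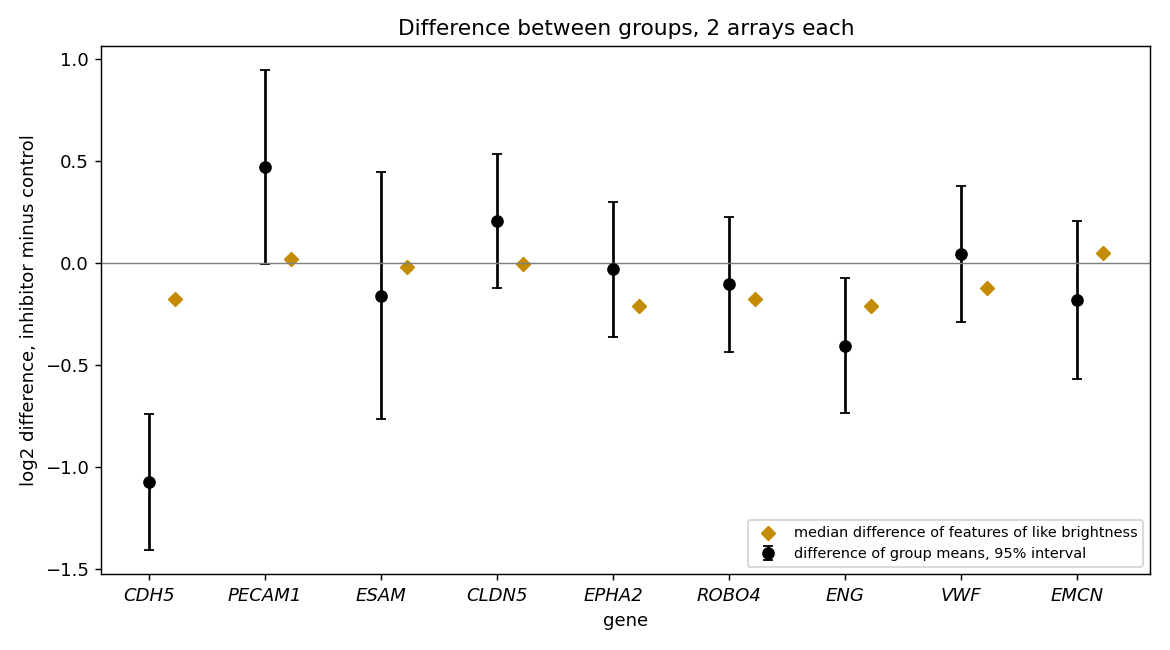
Log2 difference of the group means, inhibitor minus control, for each gene (points, n = 2 arrays per group) with the 95% interval from limma (bars), beside the median difference of features within 0.25 log2 units of the gene's mean (diamonds). CDH5 is at -1.075 beside -0.175 for features of like brightness, ENG is at -0.405 beside -0.21, and PECAM1 is at 0.47 beside 0.02. The list was chosen on these differences, so the intervals are a description only. They use limma's moderated variance and may not cover the spread between separate cultures.

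**Figure D3:**
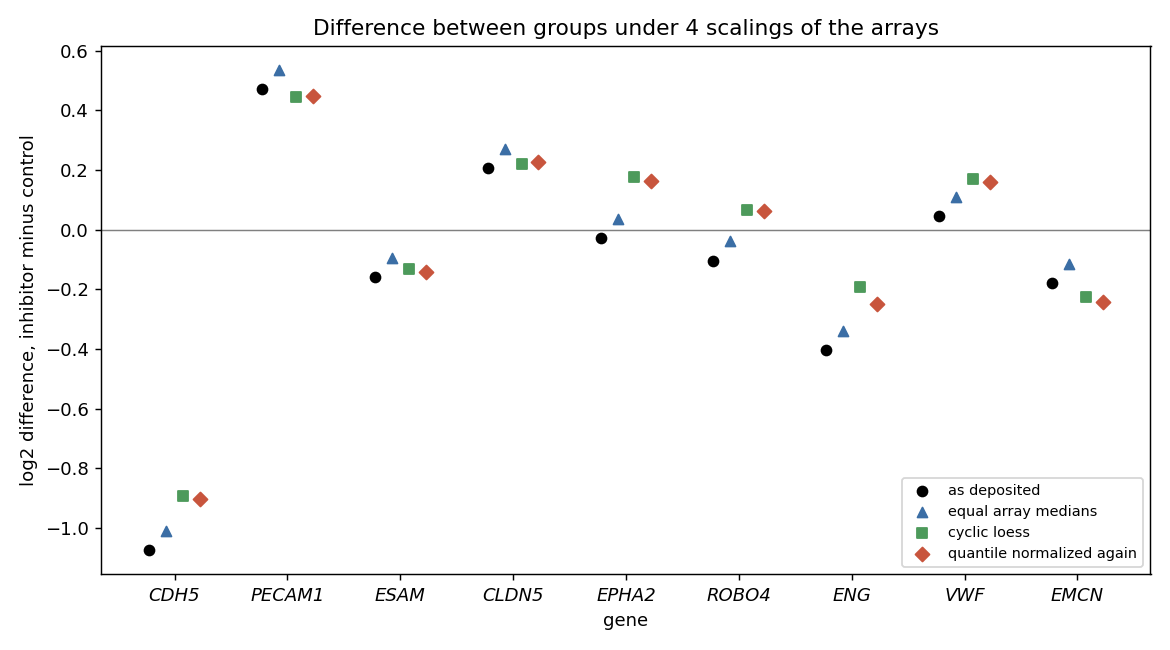
The same log2 differences with the arrays as deposited, with equal medians, after cyclic loess and after a further quantile normalization. CDH5 stays between -1.075 and -0.892, ENG moves from -0.405 to as little as -0.193, EPHA2 turns from -0.03 to above 0 under the 3 other scalings, and ROBO4 turns from -0.105 to above 0 under cyclic loess and quantile normalization.

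Other genes that mark endothelium had both bright and dim features, where bright means above every olfactory receptor feature. Of 39 listed markers outside the 9, 38 had a named feature. Of these, 8 were brighter than every olfactory receptor feature (41.8% of all features were). Another cut, the 95th percentile of that family, had 17 of the 38 above it (67.3% of all features were) and 21 at or below it. Both shares of the list were below those of all features. Among the bright ones, TIE1, an endothelial receptor tyrosine kinase, had values of 8.5 and 8.88 in control cells and 8.49 and 8.49 under the inhibitor. ECSCR, an endothelial surface regulator of migration, had 9.57 and 9.50, then 9.24 and 9.24. EGFL7, a secreted endothelial factor and the host gene of miR-126, had 8.42 and 8.54, then 8.48 and 8.65. KDR, the main receptor for VEGF, had 2.80 and 2.58 in control cells and 2.62 and 2.85 under the inhibitor, among the olfactory receptor features. FLT1 (means of 2.785 and 2.845), TEK (3.12 and 3.01) and PLVAP, a protein of endothelial pores (2.87 and 2.99), lay there too. The array values thus held bright TIE1, ECSCR, EGFL7, CDH5 and ENG next to dim KDR, FLT1, TEK, PECAM1, EMCN and PLVAP.

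In the comparison of the groups, 0 of these 38 markers passed an adjusted p of 0.05 over all features in limma, 4 had an unadjusted p under 0.05, and the median log2 difference was -0.038 beside -0.07 over all features. The counts at an unadjusted p under 0.05 in this and the following lists are to be read beside the 17.9% of all features that reached it, and those with the intensity trend beside 7.11% (6.09% lower). S1PR1, the receptor for sphingosine-1-phosphate that keeps endothelial junctions closed, had values of 10.35 and 10.26 in control cells and 9.70 and 9.70 under the inhibitor (log2 difference -0.605, limma adjusted p = 0.16). PROCR, the endothelial protein C receptor, had 7.90 and 7.93, then 7.26 and 7.37 (-0.60, limma adjusted p = 0.16). NOSTRIN, a trafficking protein of endothelial nitric oxide synthase, had 2.50 and 2.58, then 3.12 and 3.46, within the dimmest 25% of features (limma adjusted p = 0.16). With the intensity trend 2 of the 38 passed, S1PR1 and PROCR, a share below that of all features.

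Transcription factors that drive endothelial genes also had bright and dim features. Of 26 listed, 25 had a named feature, 20 lay above the 95th percentile of the olfactory receptor features (67.3% of all features did), and 12 were brighter than every olfactory receptor feature (41.8% of all features were), among them the ETS factors ERG and FLI1, which bind the promoters of many endothelial genes. ERG had values of 6.85 and 7.02 in control cells and 6.91 and 6.83 under the inhibitor, and FLI1 had 8.01 and 7.96, then 7.49 and 8.10. In inhibitor array 1 ERG lay below the highest olfactory receptor feature of that array (7.22). The groups overlapped for both ERG and FLI1, with log2 differences of -0.065 for ERG and -0.19 for FLI1. SOX18 (means of 4.06 and 4.075) lay below the 95th percentile of the olfactory receptor features. None of the 25 passed the threshold over all features in limma (3 had an unadjusted p under 0.05), and the median log2 difference was -0.065. The largest moderated statistics were those of ELK3, an ETS repressor (9.78 and 9.83, then 9.24 and 9.29, limma adjusted p = 0.17), HEY1, a Notch effector (6.67 and 6.47, then 7.23 and 7.04, 0.18), and HHEX, a homeobox factor of early endothelium (6.05 and 5.96, then 5.31 and 5.66, 0.21). With the intensity trend 2 of the 25 passed, ELK3, lower, and HEY1, higher, a share near that of all features.

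**Figure D4:**
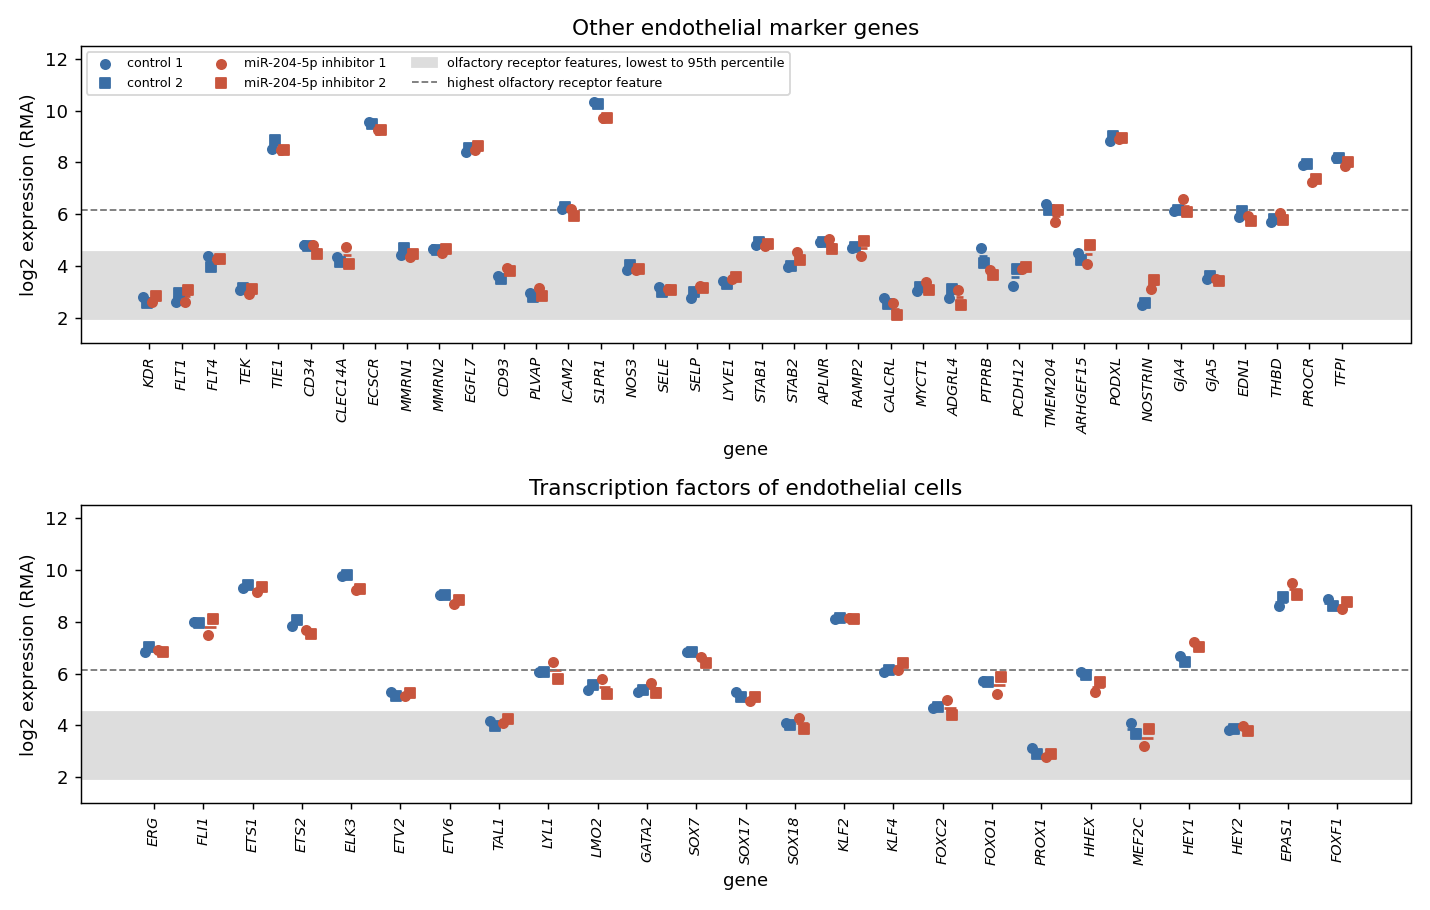
Log2 expression (RMA) in each array of 38 other endothelial marker genes (upper panel) and 25 transcription factors of endothelial cells (lower panel), with group means as short lines and the olfactory receptor range as in the plot of the 9 genes. TIE1, ECSCR, EGFL7 and S1PR1 stand above the dashed line at 6.16 while KDR, FLT1 and TEK lie in the grey band; ERG and FLI1 stand above the line.

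Because ETS factors recognise GGAA and several were bright, the sequence around the start site is shown for ENG and ROBO4, which were bright, and EMCN, which was not. A sequence was held for 4 of the 9 genes (these 3 and EPHA2), 250 bases before to 50 after the start, from RefSeq (GRCh38.p14). Capitals mark GGAA on the gene's strand or TTCC, its reverse complement; overlapping matches would be counted separately.
ENG: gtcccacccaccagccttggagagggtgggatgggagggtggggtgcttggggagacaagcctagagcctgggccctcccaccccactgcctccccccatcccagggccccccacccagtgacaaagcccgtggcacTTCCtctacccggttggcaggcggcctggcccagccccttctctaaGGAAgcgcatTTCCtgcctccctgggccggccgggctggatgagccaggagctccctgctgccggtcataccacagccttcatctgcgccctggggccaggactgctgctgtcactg
ROBO4: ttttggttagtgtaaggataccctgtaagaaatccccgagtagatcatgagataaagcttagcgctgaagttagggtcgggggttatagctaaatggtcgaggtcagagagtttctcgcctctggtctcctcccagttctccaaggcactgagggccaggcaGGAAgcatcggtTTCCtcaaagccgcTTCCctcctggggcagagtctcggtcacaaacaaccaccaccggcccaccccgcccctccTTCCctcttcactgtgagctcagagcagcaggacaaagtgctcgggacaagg
EMCN: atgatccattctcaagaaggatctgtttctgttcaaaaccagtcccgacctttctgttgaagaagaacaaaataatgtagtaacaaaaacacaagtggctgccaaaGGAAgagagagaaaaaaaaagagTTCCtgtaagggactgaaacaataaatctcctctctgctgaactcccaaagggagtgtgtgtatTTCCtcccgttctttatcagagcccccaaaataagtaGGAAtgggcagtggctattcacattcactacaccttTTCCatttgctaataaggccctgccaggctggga
The ENG window is on chromosome 9 (127854609 to 127854908), that of ROBO4 on chromosome 11 (124897816 to 124898115) and that of EMCN on chromosome 4 (100517973 to 100518272), all on the minus strand. They held 3, 4 and 5 GGAA matches over both strands, and the EPHA2 window held 4. At least 1 match is in 95.5% of the 35116 windows of this length, with a median of 3 per window, and 28.6% of windows hold as many as EMCN or more. CG pairs numbered 8 in ENG, 11 in ROBO4, 2 in EMCN and 20 in EPHA2, against a median of 14. The matches are a description of letters and do not tell the bright genes from the dim one.

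Most partners of VE-cadherin at the adherens junction had lower values with the inhibitor, as did most bright features. Of 18 listed genes 15 had a named feature, 12 were lower and 3 higher, with a median log2 difference of -0.285 beside -0.07 over all features and -0.205 for the brightest 25% of features, and the list median was -0.137 after quantile normalization. None passed the threshold over all features in limma, and 3 had an unadjusted p under 0.05. CTNNB1, which encodes beta-catenin, had values of 10.18 and 10.35 in control cells and 9.95 and 10.08 under the inhibitor. VCL, the actin linker vinculin, had 8.82 and 8.93, then 8.40 and 8.23 (log2 difference -0.56, limma adjusted p = 0.18), and it alone of the 15 passed with the intensity trend. PTPRB, the phosphatase that binds VE-cadherin, had 4.68 and 4.10, then 3.83 and 3.66 (-0.645, limma adjusted p = 0.22), below the 95th percentile of the olfactory receptor features. PARD3, a polarity scaffold, had 7.45 and 7.64, then 7.09 and 7.23 (-0.385, limma adjusted p = 0.26).

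None of the other measured cadherins had a difference as large as that of CDH5, but most had dim features. Only 8 of the 19 lay above the 95th percentile of the olfactory receptor features (67.3% of all features did). A fall like that of CDH5 may not be visible in the dimmer ones, though CCDC159, with a mean of 3.518, had a log2 difference of -1.065. Of 19 measured, 11 were higher and 8 lower with a median log2 difference of 0.09, and 0 passed in limma (2 had an unadjusted p under 0.05). CDH2, which encodes N-cadherin, had values of 9.19 and 9.32 in control cells and 8.95 and 8.95 under the inhibitor (log2 difference -0.305, limma adjusted p = 0.32). CDH1, which encodes E-cadherin, had 2.72 and 2.96, then 3.50 and 2.81, among the olfactory receptor features. CDH22 had 5.78 and 5.87, then 6.66 and 6.12 (0.565, limma adjusted p = 0.23), and CDH17 had 3.09 and 3.52, then 3.90 and 3.64 (0.465, 0.28). CDH17 lay below the 95th percentile of the olfactory receptor features.

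Tight junction and adhesion relatives of CLDN5, ESAM and PECAM1 went both ways. Of 27 measured claudins and tight junction genes 12 were higher and 15 lower (median log2 difference -0.06), 0 passed in limma and 7 had an unadjusted p under 0.05. CLDN11 and CLDN1 were bright, with control means of 11.435 and 10.615 and inhibitor means of 11.29 and 10.86. TJP1, the scaffold ZO-1, had values of 8.45 and 8.49 in control cells and 7.91 and 7.98 under the inhibitor (log2 difference -0.525, limma adjusted p = 0.18), and it alone of the 27 passed with the intensity trend. OCLN, occludin, had 4.37 and 4.36, then 3.78 and 4.03 (-0.46, limma adjusted p = 0.22), and TJP3 had 3.39 and 3.58, then 4.50 and 3.80 (0.665, 0.23). OCLN and TJP3 lay below the 95th percentile of the olfactory receptor features. Of 20 measured genes of the junctional adhesion family and of leukocyte passage 7 were higher and 13 lower (median -0.138), and 0 passed in limma (4 with an unadjusted p under 0.05). CD99L2, which helps leukocytes cross endothelium, had 6.99 and 7.04, then 6.44 and 6.56 (-0.515, limma adjusted p = 0.18). CXADR had 2.90 and 2.82, then 3.17 and 3.41 (0.43, 0.23), and VSIG1 had 3.52 and 3.40, then 4.0 and 3.75 (0.415, 0.25), both within the dimmest 25% of features.

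The pathway of endoglin held SMAD3, one of the larger differences among the listed genes. Of 22 measured ligands, receptors and SMAD genes 9 were higher and 13 lower, with a median log2 difference of -0.037; 0 passed in limma and 4 had an unadjusted p under 0.05. SMAD3, which relays TGF-beta signals to the nucleus, had values of 9.43 and 9.44 in control cells and 8.59 and 8.74 under the inhibitor (log2 difference -0.77, limma adjusted p = 0.14). SMAD1, which relays BMP signals, had 6.78 and 6.88, then 6.46 and 6.25 (-0.475, limma adjusted p = 0.21). TGFBR2 had 9.53 and 9.52, then 8.89 and 9.23 (-0.465, 0.23). SMAD3 and TGFBR2, 2 of the 22, passed with the intensity trend. ACVRL1, the endothelial receptor kinase ALK1 that pairs with endoglin, had 4.58 and 4.66, then 4.3 and 4.8, just above the 95th percentile of the olfactory receptor features.

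Ligands and relatives of EPHA2 and ROBO4 included higher and lower values. Of 18 measured ephrin-A, EPHA and EPHA2 effector genes 7 were higher and 11 lower (median log2 difference -0.028), 0 passed in limma and 5 had an unadjusted p under 0.05. EFNA5, an ephrin-A ligand, had values of 8.37 and 8.53 in control cells and 7.81 and 7.98 under the inhibitor (-0.555, limma adjusted p = 0.18), and it alone of the 18 passed with the intensity trend. EPHA5 had 3.08 and 2.99, then 3.57 and 3.66 (0.58, 0.17), and EFNA3 had 4.45 and 4.45, then 4.07 and 3.64 (-0.595, 0.20). EFNA1, the best known ligand of EPHA2, had 3.98 and 4.14, then 4.34 and 3.61, with overlap. EPHA5, EFNA3 and EFNA1 lay below the 95th percentile of the olfactory receptor features. Of 13 Slit and Robo genes 4 were higher and 9 lower (median -0.105), and 0 passed in limma (3 with an unadjusted p under 0.05). ROBO3 had 5.45 and 5.56, then 4.98 and 4.94 (-0.545, limma adjusted p = 0.17), and SLIT1 had 4.90 and 4.85, then 5.25 and 5.43 (0.465, 0.21). SLIT3 had 2.70 and 2.86, then 3.09 and 3.20 (0.365, limma adjusted p = 0.27), below that percentile too.

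Genes that process or store von Willebrand factor, and sialomucins related to endomucin, included higher and lower values. Of 15 measured in the first list 8 were higher and 7 lower (median log2 difference 0.01), 0 passed in limma and 1 had an unadjusted p under 0.05, THBS1. THBS1, thrombospondin-1, a secreted glycoprotein of platelets and the matrix, had values of 10.35 and 10.53 in control cells and 11.04 and 10.99 under the inhibitor (0.575, limma adjusted p = 0.17), and it alone of the 15 passed with the intensity trend. CD63, a membrane protein of the storage granule, had 9.55 and 9.54, then 9.81 and 9.93 (0.325, limma adjusted p = 0.30), and SELP, P-selectin, had 2.76 and 2.98, then 3.21 and 3.16, among the olfactory receptor features. Of 6 sialomucins 3 were higher and 3 lower (median -0.015), with 0 past the threshold in limma and 1 at an unadjusted p under 0.05. MUC16 had 4.68 and 4.86, then 4.35 and 4.42 (-0.385, limma adjusted p = 0.25), PODXL2 had 7.86 and 7.93, then 7.96 and 8.06 (0.115, 0.70), and CD34 had 4.79 and 4.75, then 4.81 and 4.46 (-0.135, 0.70).

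Genes named for vasculogenic mimicry beside CDH5 and EPHA2 included both higher and lower values. Of 24 listed 21 had a named feature, 10 were higher and 11 lower (median log2 difference -0.105), 0 passed in limma and 8 had an unadjusted p under 0.05, beside 17.9% of all features. TFPI2, a matrix-bound protease inhibitor, had values of 10.75 and 10.92 in control cells and 11.53 and 11.59 under the inhibitor (0.725, limma adjusted p = 0.14). PTK2, the focal adhesion kinase, had 6.56 and 6.44, then 5.84 and 5.99 (-0.585, limma adjusted p = 0.17). SERPINF1, an inhibitor of vessel growth, had 4.25 and 4.28, then 3.71 and 3.83 (-0.495, limma adjusted p = 0.19). SERPINF1 lay below the 95th percentile of the olfactory receptor features. MMP14, a membrane protease, had 10.04 and 10.16, then 9.94 and 9.94. With the intensity trend 3 of the 21 passed: TFPI2 and SNAI2 higher and ZEB1 lower.

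Markers of other cell types were looked at beside CDH5. VIM, KRT8, KRT18 and PAX8, listed as carcinoma line markers, were bright (control means of 11.985, 11.375, 10.96 and 8.47). KRT7, FN1, ZEB1, CDH2 and WT1 of that list were bright too (10.72, 10.22, 9.78, 9.255 and 6.76). EPCAM, CDH1 and MSLN were dim (3.53, 2.84 and 3.565), and MUC1, MUC16 and KRT19 lay between (4.565, 4.77 and 5.44). Of the 15 measured carcinoma line markers 12 lay above the 95th percentile of the olfactory receptor features (67.3% of all features did). In limma 0 of the 15 passed, 5 had an unadjusted p under 0.05 (17.9% of all features) and 3 passed with the intensity trend (7.11%). PTPRC, which marks all leukocytes, had values of 2.90 and 2.77 in control cells and 2.87 and 3.03 under the inhibitor, among the olfactory receptor features. The 12 measured leukocyte and platelet markers had a mean level of 4.716 and 4.826 in control cells and 4.717 and 4.808 under the inhibitor, with 6 of the 12 above the 95th percentile of the olfactory receptor features (67.3% of all features). CD68, a lysosomal protein used as a macrophage marker, was among these, at 8.4 and 8.4, then 8.3 and 8.55. The 13 measured mural and fibroblast markers had 5.226 and 5.153, then 4.95 and 5.153, with 8 of 13 above that percentile and PDGFRB, which marks pericytes, at 4.10 and 3.89, then 3.58 and 3.71. ACTA2, smooth muscle actin, was brighter, at 8.13 and 8.23, then 8.04 and 7.79, as were the collagen genes COL1A2 (7.99 and 7.79, then 7.60 and 7.99) and COL1A1 (6.11 and 6.20, then 5.66 and 6.31). The part of these cell types in the CDH5 difference was not tested, and in bulk RNA fewer cells of a type cannot be told apart from less RNA per cell. Over all 15 lists, 276 genes of which 260 had a named feature, 107 were higher and 153 lower, 0 passed the threshold in limma, 49 had an unadjusted p under 0.05 (18.8%, beside 17.9% of all features), and 5 higher and 10 lower passed with the intensity trend (5.77%, beside 7.11%).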

How the data were processed

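The members and the gene lists were chosen with earlier results of these data known. Per the submitters' processing notes, the deposited log2 values came from RMA run with Transcriptome Analysis Console 4.0; its settings and the genome build are not given in the sources used here. Symbols came from the platform annotation (17709 features with 1 symbol, 3739 without); the brightest feature by mean of the 4 arrays stood for a symbol, and each of the 9 genes had 1. All 21448 features were fitted with limma 3.58.1 in R 4.3.3 (lmFit and eBayes, no filter, no replicate block; 2 residual and 4.78 prior degrees of freedom), with Benjamini-Hochberg adjustment over all features. An exact permutation test of 2 against 2 arrays cannot give a p below 0.333. On simulated tables of 21448 features, 200 of them changed and with spreads drawn from limma's variance prior, 0% of 2-fold and 98.1% of 4-fold changes were recovered. The number of changed features in the real arrays is not known, so these figures do not give the power in them. Named were the 9 genes, defining markers, the 3 features nearest to CDH5 and, in each list, the 3 with the largest absolute moderated statistic. For the lists of leukocyte and platelet, mural and fibroblast, and carcinoma line markers that last rule was not followed in full. Other genes named, the comparison with features of like brightness and the promoter windows were chosen after values were seen. The number of arrays limits the precision. Alternatives were an intensity trend, a robust prior, a replicate block, other scalings, filters on dim features and leaving out each array.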

Additional observations from a re-analysis of the deposited data

How the results depend on the processing

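Of the alternatives, 3 scalings and 4 fits without 1 array can change a difference; the others leave it as it is. CDH5, PECAM1, CLDN5, VWF, EMCN and ENG kept their sign in all 7; EPHA2 turned under all 3 scalings, ROBO4 under 2 of 3, and ESAM in 2 of 4 fits without 1 array. Features past the threshold numbered 11 (11 higher, 0 lower) on the deposited values. The count was 1525 (219 higher, 1306 lower) with the intensity trend, 559 (304 and 255) with quantile normalization and trend, 38 (28 and 10) above the 25th percentile, 1011 (144 and 867) above the median and 0 (0 higher) after quantile normalization. With the replicate block it was 0 (0 higher); the numbers pair nothing in the labels, and the deviations of same-numbered arrays correlated at 0.006. Leaving out each array gave 0 to 0, with 924 to 5878 features at an unadjusted p under 0.05. Members past the threshold under the trend, the filters and quantile normalization with the trend are counted in the Results, beside the share of all features. Members higher were 5 after quantile normalization, with or without trend, 5 after cyclic loess and 1 of 5 tested above the median; without 1 array they were 3 to 4. A fit without 1 array has fewer degrees of freedom. Under the alternatives 13 of 195 list medians moved by more than the spread between the controls, 26 of 195 list counts by more than 1.5 times or from 0, and 26 of 112 member differences by more than 1 SD. The totals for medians and member differences include the intensity trend, robust prior and replicate block, which cannot change them. They also hold quantile normalization both with and without the trend. The share moved among alternatives that can change a value is therefore not given by these counts. The SD for a member is that within its groups of 2 arrays. Without control array 1, CLDN5 thus counted as moved, at 0.2 against 0.205. Without inhibitor array 2, ESAM did not, at -0.48 against -0.16. Taking the dimmest 25% of features as the dim reference put 8 of 9 genes above it, against 7 above the olfactory receptor 95th percentile. Averaging several features of a symbol was not run, since each gene had 1.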

Other observations

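The genes next to CDH5 on its chromosome, by their order in RefSeq (GRCh38.p14), were chosen after values were seen. CDH11 and CDH8 on one side had log2 differences of -0.18 and 0.09, and BEAN1 and TK2 on the other had -0.20 and -0.28. CDH11, CDH8 and TK2 (means of 3.315, 2.875 and 4.185 over the 4 arrays) lay below the 95th percentile of the olfactory receptor features (4.52). A fall like that of CDH5 may not be visible in every feature at that level, though CCDC159 (mean of 3.518) had a log2 difference of -1.065. Whether one could be seen in these neighbours was not tested. BEAN1 had a mean of 6.4. ENG had a log2 difference near those of its neighbours on one side, -0.405 beside -0.425 for FPGS and -0.395 for CDK9. AK1 and ST6GALNAC6 on the other side had -0.015 and 0.025. Features of like brightness had medians of -0.21 for ENG, -0.225 for FPGS, -0.215 for CDK9, -0.16 for AK1 and -0.172 for ST6GALNAC6. ESAM and ROBO4 lie on the same chromosome with MSANTD2 (0.13) and ROBO3 (-0.545) between them among the measured protein-coding genes. None of these differences was tested for a link with position.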
